A study of Mus musculus with 8 samples.

Results

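The mitochondrial genome transcripts are the 37 genes of the deposited count table that lie on the mitochondrial chromosome (M), out of 53801 genes in all. The rule uses only their location. They are 13 mRNA genes, 2 rRNA genes and 22 tRNA genes. Paneth cells, the antimicrobial secretory cells at the base of small intestinal crypts, were sorted by FACS as viable EpCAM+ CD24+ cells for RNA sequencing. Of the 8 samples, 4 were β-cat GOF; Mll1+/-, named controls 1 to 4 in this text, and 4 were β-cat GOF; Mll1-/-, named knockouts 1 to 4. All mice carried Lgr5-EGFP-IRES-CreERT2 and an allele from which Cre removes exon 3 of β-catenin, leaving a stabilised protein (β-cat GOF). Controls were Mll1 flox/+ and knockouts Mll1 flox/flox, and both groups received 1 mg tamoxifen intraperitoneally on 3 consecutive days and were analysed 10 d after induction. The mice were a few weeks old at induction, by the study's methods. The Lgr5 promoter drives Cre in stem cells of some crypts and not of others, so recombined and non-recombined crypts lie side by side. The methods paragraph on the sorting names mice without the β-catenin allele, whereas the series' own design text names β-cat GOF. The question addressed was whether the share, the composition or single members of the mitochondrial transcripts differed between the genotypes.

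The mouse mitochondrial genome is a small circle read from both strands as long precursor RNAs. The tRNA genes lie between most of the rRNA and mRNA genes, and cutting at the tRNAs releases the mature rRNAs and mRNAs. The mRNAs encode subunits of respiratory chain complexes I, III and IV and of ATP synthase (complex V), whereas every protein that copies, processes and translates them is encoded in the nucleus. Of the 13 mRNA genes, 7 encode complex I subunits (mt-Nd1 to mt-Nd6 and mt-Nd4l), 3 encode complex IV subunits (mt-Co1 to mt-Co3), 2 encode complex V subunits (mt-Atp6 and mt-Atp8), and mt-Cytb encodes the cytochrome b of complex III. The light-strand group here is the 9 genes annotated on the minus strand, mt-Nd6 and 8 tRNA genes.

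A stretch of the mitochondrial genome also exists as a copy in the nucleus. The first copied bases of 3 genes are shown, because a read wholly within bases that the 2 places share fits both. On chromosome 1 of GRCm38, chr1:24611535-24616197, minus strand, 7 unprocessed pseudogenes match chrM:6381-11042 in the same order. They are Gm29216 (copy of mt-Co1), Gm28661 (mt-Co2), Gm10925 (mt-Atp6), Gm28437 (mt-Co3), Gm28438 (mt-Nd3), Gm10222 (mt-Nd4l) and Gm28439 (mt-Nd4). Over these genes, 4142 of 4149 aligned bases were identical in the GENCODE M21 transcripts. The 7 differences were 1 in mt-Nd3 and 6 in the part of mt-Co1 where the copy begins, and the windows of 30 bases printed here have the differing bases in capitals. Positions are counted from 1 at the 5′ end of the mitochondrial gene, and the base of the mitochondrial gene is given first.
mt-Nd3, positions 1 to 30: atTaacctgtacactgttatcttcattaat
Gm28438, bases 1 to 30: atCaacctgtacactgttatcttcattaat
mt-Co1, positions 1054 to 1083: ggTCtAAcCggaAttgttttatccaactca
Gm29216, bases 1 to 30: ggATtGGcAggaTttgttttatccaactca
mt-Co3 and Gm28437, positions 1 to 30 of both: atgacccaccaaactcatgcatatcacata
In mt-Nd3 the difference was T3C. In mt-Co1 the differences were T1056A, C1057T, A1059G, A1060G, C1062A and A1066T, and the rest of that copy was identical to the mitochondrial gene. The mt-Co3 window shows no capital because the copy is identical over its whole length, and the same held for the copies of mt-Co2, mt-Atp6, mt-Nd4l and mt-Nd4.

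The libraries were of similar depth, with 13557350 to 14380240 counts in control libraries and 13037832 to 13554171 in knockout libraries. Knockout 3 stood apart, since only 19662 genes had any count there and the other 7 libraries detected 22623 to 26074, and several values are therefore also given without it. Of the 6 Paneth cell markers, all had more than 10 counts in every library, and Lyz1 alone had between 256862 and 713130. Their summed level, in counts scaled to the TMM-adjusted library size (normalized CPM), was 47375 to 128673 in the controls and 45986 to 205181 in the knockouts. Among them Pla2g2a varied widely in both genotypes, with 10421, 566, 670 and 25155.5 in controls 1 to 4 and 548, 459, 45507 and 19110 in knockouts 1 to 4. The 7 goblet cell markers summed to 9279 to 17776 normalized CPM in the controls and 7883 to 19001 in the knockouts, and the 5 immune markers, 3 of them with at most 10 counts in any library, to 5.58 to 28.9 and 6.83 to 22.8. The 5 stromal markers, also with 3 at no more than 10 counts, reached 3.72 to 6.35 and 4.72 to 6.95. Summed markers of 4 other epithelial cell types had lower means in the knockouts, with overlapping ranges of the sums. For Slc12a2 (stem), Neurod1 and Tph1 (enteroendocrine) and Fabp2 (enterocyte), every knockout lay below every control. The same held for 1.93% of all tested genes. Neurod1 had 22.2 to 57.1 normalized CPM in the controls and 3.74 to 12.6 in the knockouts. Tph1 had 7.10 to 22.5 and 0 to 3.16, and Fabp2 30.9 to 42.4 and 12.8 to 28.5. The other markers of these lists overlapped. The 5 stem cell markers had a summed mean of 1170 normalized CPM (690.4 to 1493) for controls and 615 (253 to 916) for knockouts, of which Olfm4 had 449 to 1123 and 103 to 688. The stem cell marker Lgr5 had 43.0 to 51.0 in the controls and 37.3 to 55.6 in the knockouts, and Smoc2 had 48.5 to 61.7 and 48.0 to 56.5. Slc12a2 had 132 to 254 in the controls and 62.9 to 121 in the knockouts, and Ascl2 had 4.59 to 11.6 and 2.24 to 6.55. The summed mean was 272 (129 to 412) and 91.8 (18.0 to 134) for the 5 enteroendocrine markers. For the 6 enterocyte markers it was 213 (89.1 to 274) and 123 (26.3 to 190.1), and for the 3 tuft cell markers 167 (78.1 to 244) and 81.9 (36.0 to 163). Kmt2a, which encodes Mll1, received 268 to 719 counts in the controls and 328 to 523 in the knockouts, summed over all its exons, so these counts do not check the label at the floxed exons.

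Mitochondrial transcripts made up 8.78%, 5.18%, 4.41% and 3.26% of all counts in controls 1 to 4. In knockouts 1 to 4 they made up 6.09%, 6.16%, 2.04% and 5.98%. Control 1 was the highest of the 8 libraries and knockout 3 the lowest, and the other 3 knockouts lay within the range of the controls. The controls had a mean of 5.41% ± 2.39 and the knockouts one of 5.07% ± 2.02 (SD over 4 libraries of each genotype), a difference of -0.34 percentage points (exact permutation test, two-sided, p = 0.886). With 4 against 4 libraries the smallest p this test can give is 0.0286. Counting error was small beside this spread, since the 95% Wilson intervals reached at most 0.0149 percentage points to either side. The reads carry no molecular identifiers, so these intervals cover counting error only. Without knockout 3 the difference was 0.67 percentage points in the other direction (exact permutation p = 0.629), and without control 1 it was 0.79 (exact permutation p = 0.571). It was -1.22 over TMM-adjusted library sizes (exact permutation p = 0.286), -3.97 without the 50 most abundant nuclear genes in the total (exact permutation p = 0.314) and 0.13 for mRNA genes only (exact permutation p = 0.686).

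The share differed between the library sets, 2 runs of label numbers each with 2 controls and 2 knockouts. In the set of controls 1 and 2 and knockouts 1 and 2, the mean share was 6.98% in the controls and 6.12% in the knockouts. In the set of controls 3 and 4 and knockouts 3 and 4, it was 3.83% and 4.01%. The direction of the genotype difference was therefore not the same in the 2 sets, and with 2 against 2 libraries no test was made within them.

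The share of the 39 α-defensin (Defa) genes, the main antimicrobial peptides of Paneth cells, moved with the mitochondrial share in the opposite direction. Defensin genes took 39.4%, 49.1%, 52.6% and 54.6% of the counts in controls 1 to 4, and 45.4%, 44.8%, 53.9% and 49.0% in knockouts 1 to 4. Among the controls the order of the defensin shares was the reverse of the order of the mitochondrial shares, and knockout 3 had the highest defensin share of the knockouts. Of the counts that were not on defensin genes, mitochondrial transcripts made up 14.5%, 10.2%, 9.30% and 7.18% in controls 1 to 4. The corresponding values in knockouts 1 to 4 were 11.2%, 11.1%, 4.43% and 11.7%. Knockout 3 remained the lowest and the other 7 libraries lay between 7.18% and 14.5%, with a genotype difference over all 8 of -0.67 percentage points (exact permutation p = 0.83). In sorted cells measured in bulk, fewer mitochondrial transcripts per cell and more RNA of other kinds per cell cannot be told apart.

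**Figure D1:**
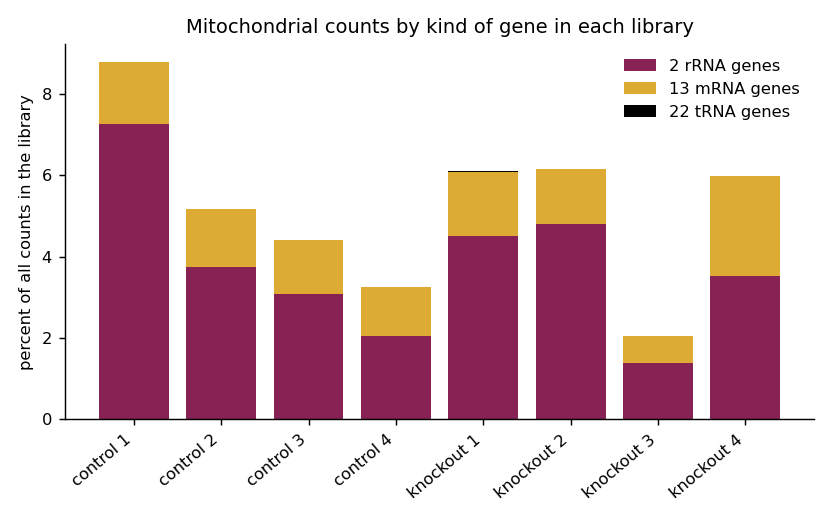
Stacked bars show, for each of the 8 libraries, the percent of all counts on the 2 rRNA, 13 mRNA and 22 tRNA genes of the mitochondrial genome. Control 1 reaches 8.78% and knockout 3 stays at 2.04%, the rRNA genes form the largest part of every bar, and the tRNA part is too thin to read.

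The 2 rRNA genes took most of the mitochondrial counts in every library. mt-Rnr1 and mt-Rnr2, the rRNAs of the small and the large subunit of the mitochondrial ribosome, together made up 82.6%, 72.3%, 69.7% and 62.5% of mitochondrial counts in controls 1 to 4. They made up 74.0%, 77.9%, 67.9% and 58.9% in knockouts 1 to 4. The ranges overlapped, with means of 71.8% ± 8.29 for controls and 69.7% ± 8.32 for knockouts (SD, n = 4 per genotype; difference -2.09 percentage points, exact permutation p = 0.743). Without knockout 3 the difference was -1.50 percentage points, without control 1 it was 1.51 and without knockout 4 it was 1.52, in the other direction. It was -3.54 without knockout 1, -4.84 without knockout 2 and -5.17 without control 4. The rRNA share was lower in the second library set in both genotypes, with means of 77.4% and 76.0% in controls and knockouts of the first set and 66.1% and 63.4% in the second. mt-Rnr2 ranked between the 4th and the 14th most counted gene of a library.

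Per kb of gene, mt-Rnr2 (ENSMUSG00000064339, chrM:1094-2675, plus strand) had 31758, 21592, 19435 and 12205 normalized CPM in controls 1 to 4 and 18372, 18509, 11072 and 15109 in knockouts 1 to 4. mt-Rnr1 (ENSMUSG00000064337, chrM:70-1024, plus strand) had 13700.2, 7224, 7037 and 4086 normalized CPM per kb in the controls and 6578, 7078, 4699 and 5369 in the knockouts. Control 1 was highest for both rRNAs and the other libraries of the 2 genotypes overlapped. The count of mt-Rnr2 was 3.84, 4.95, 4.57 and 4.95 times that of mt-Rnr1 in controls 1 to 4 and 4.63, 4.33, 3.90 and 4.66 times in knockouts 1 to 4. On the log2 scale the ratio was 2.2 ± 0.17 for controls and 2.13 ± 0.12 for knockouts (SD, n = 4 per genotype; difference -0.06, exact permutation p = 0.571). The difference was -0.0054 without knockout 3, -0.020 without control 2 or without control 4, -0.091 without knockout 4 and -0.14 without control 1. It was 0.04 within the first library set and -0.16 within the second.

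The mRNA genes varied less among the controls than the rRNA genes did. They took 1.52%, 1.43%, 1.33% and 1.22% of all counts in controls 1 to 4, while the rRNA genes took 7.25%, 3.74%, 3.07% and 2.04%. In knockouts 1 to 4 the mRNA genes took 1.57%, 1.35%, 0.653% and 2.45%, and the rRNA genes 4.51%, 4.80%, 1.39% and 3.52%. Knockout 3 was lowest for both kinds, and knockout 4 was highest for the mRNA genes but not for the rRNA genes. rRNA counts were between 1.68 and 4.77 times the mRNA counts in the controls and between 1.43 and 3.55 times in the knockouts.

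Complex I mRNAs made up 61.5%, 53.6%, 53.6% and 48.3% of mitochondrial mRNA counts in controls 1 to 4 and 54.4%, 57.6%, 45.7% and 43.5% in knockouts 1 to 4. Knockouts 3 and 4 lay below every control, and knockouts 1 and 2 lay among the controls. The means were 54.3% ± 5.44 and 50.3% ± 6.74 (SD, n = 4 each; difference -3.95 percentage points, exact permutation p = 0.400). The difference was -1.54 percentage points without control 1, -1.68 without knockout 4 and -2.42 without knockout 3, while it was -5.95 without control 4 and -6.37 without knockout 2. Within the first library set it was -1.58 and within the second -6.31. mt-Cytb, the only complex III member, made up 24.8%, 28.5%, 31.5% and 33.0% of mRNA counts in controls 1 to 4 and 26.5%, 25%, 36.2% and 39.3% in knockouts 1 to 4. The 2 libraries above every control were again knockouts 3 and 4.

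Complex IV mRNAs made up 12.2%, 16.1%, 13.1% and 16.5% of mRNA counts in controls 1 to 4 and 17.4%, 15.7%, 16.3% and 14.9% in knockouts 1 to 4. Knockout 1 was above every control and the other knockouts lay among them, with means of 14.5% ± 2.15 and 16.1% ± 1.04 (SD, n = 4 each; difference 1.56 percentage points, exact permutation p = 0.286). The difference was 0.80 percentage points without control 1 and 2.23 without control 4, and 2.32 and 0.80 within the library sets. The 2 complex V mRNAs made up 1.46% to 2.23% in the controls and 1.75% to 2.25% in the knockouts. In all, 7 shares and ratios were tested between the genotypes, and the lowest p adjusted over the 7 by the Benjamini-Hochberg method was 0.800.

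Single genes were tested with edgeR's quasi-likelihood test over all 13439 genes that passed the filter on low counts. Of the 37 members 25 passed, namely all 13 mRNA genes, both rRNA genes and 10 tRNA genes. A gene was called when its adjusted p did not exceed 0.05 and its log2 fold change was 0.5 or more in size. By this rule 0 of the 25 members were called, against 0.186% of all tested genes (25 of 13439). At an unadjusted p under 0.05 there were also 0 members, against 924 of the 13439 tested genes. Likewise 0 were called by DESeq2's Wald test (1.03% of all tested genes), by limma-voom with quality weights (0.707%), without a filter on low counts (0.783%) or without knockout 3 (1.08%). Complete separation of the 4 knockouts from the 4 controls was seen for 0 of the 25 members and for 4.52% of all tested genes, 2.59% with the knockouts higher and 1.93% with the knockouts lower. Per mitochondrial count it was seen for 0 members and 4.13% of all tested genes. The log2 fold change, knockout over control, was above 0 for 2 members and below 0 for 23, with a median of -0.32 against 0.01 over all tested genes. These values come from the same 8 libraries and are not independent of one another. The knockouts also had lower mean summed levels of the stem, enteroendocrine, enterocyte and tuft cell marker lists, the first mainly through Olfm4, and their part in these differences was not tested. Without knockout 3 the median was -0.21 and without knockout 4 it was -0.46. When library sizes were set to the mitochondrial total, 0 of 25 members were called (0.268% of all genes). On that scale 11 members were above 0 and their median was -0.02, while the median of all tested genes moved to 0.31. The main fit used TMM-adjusted library sizes, with factors of 0.82 to 1.15 in the controls and 1.28, 1.34, 0.63 and 1.22 in knockouts 1 to 4. Over unadjusted totals, the mitochondrial share differed by -0.34 percentage points and that of the mRNA genes by 0.13. Unadjusted totals were used in none of the fits, so the part of this scaling in the signs was not tested.

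**Figure D2:**
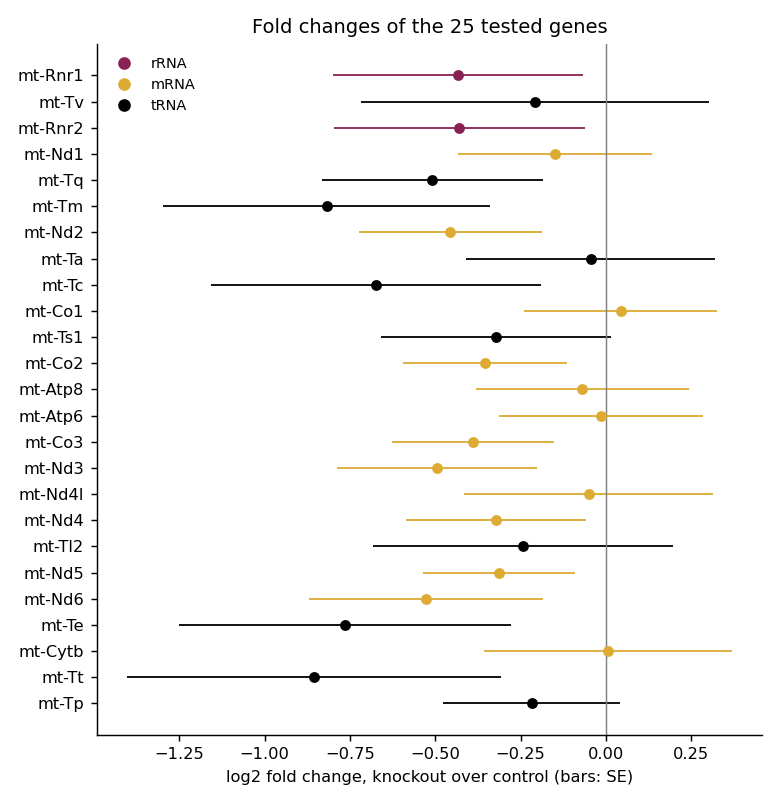
Points give the log2 fold change of each of the 25 tested members, knockout over control, in the order of the mitochondrial genome, and bars give the standard error (SE). Most points lie to the left of 0, mt-Co1 at 0.04 and mt-Cytb at 0.01 do not, and no member passed the test.

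Among the complex I genes, mt-Nd1 was the most abundant per kb, with 2419, 3166, 3546 and 2988 normalized CPM per kb in controls 1 to 4 and 2459, 2141, 2198 and 4124 in knockouts 1 to 4. Knockout 4 was the highest library and knockouts 2 and 3 lay below every control, so the groups overlapped. mt-Nd4 had 1781, 1643, 1599 and 1216 normalized CPM per kb in the controls and 1291, 1132, 882 and 1683 in the knockouts. mt-Nd2 had 1503, 1254, 1370 and 931 in the controls and 1006, 969, 565 and 1147 in the knockouts. For both, knockout 3 was lowest and knockout 4 lay among the controls. The fold change of mt-Nd2 on the log2 scale was -0.46 (SE 0.27, adjusted p = 0.847), and -0.28 without knockout 3.

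mt-Nd5 had 486, 599, 553 and 427 normalized CPM per kb in the controls and 467, 374, 326 and 495 in the knockouts. mt-Nd6 (chrM:13552-14070), the only mRNA gene of the light strand, had 1761, 1274, 1245 and 709.9 in the controls and 1232, 1015, 421 and 795 in the knockouts. Its log2 fold change was -0.53 (SE 0.34, adjusted p = 0.878), and it was -0.30 without knockout 3, -0.31 without control 1 and -0.74 without knockout 1. With limma-voom it was -0.18, and with library sizes set to the mitochondrial total -0.19. Control 1 was its highest library and knockout 3 its lowest, as for mt-Rnr2. mt-Nd3 had 73.3, 55.3, 55.1 and 49.6 in the controls and 49.99, 45.2, 17.9 and 51.6 in the knockouts. mt-Nd4l had 21.8, 50.4, 35.2 and 46.6 in the controls and 25.5, 20.2, 44.0 and 59.2 in the knockouts. Knockout 3 was lowest for mt-Nd5 and mt-Nd3, whereas for mt-Nd4l it lay among the other libraries. mt-Nd5 ends at position 13565, past the end of mt-Nd6 on the other strand, and mt-Nd4l ends at 10173, past the start of mt-Nd4 at 10167, so reads in these overlaps are uncertain.

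mt-Cytb (chrM:14145-15288, plus strand) had 2880.2, 3899, 4469 and 3991 normalized CPM per kb in controls 1 to 4 and 2852, 2218, 3273 and 6955 in knockouts 1 to 4. Knockout 4 was far above the others, with 130774 counts against 31782 to 57672 elsewhere, and the other 3 knockouts were below controls 2, 3 and 4. The log2 fold change of mt-Cytb was 0.01 (SE 0.36, adjusted p = 0.999) and became -0.46 without knockout 4. The gene ranked between the 15th and the 28th most counted gene of a library.

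Of the catalytic core subunits of complex IV, mt-Co1 had 811, 1356, 1142 and 1262 normalized CPM per kb in the controls and 1181, 849.6, 983 and 1695 in the knockouts. Its log2 fold change was 0.04 (SE 0.28, adjusted p = 0.995) and became -0.19 without knockout 4. mt-Co2 had 263, 310.2, 274 and 257 in the controls and 224, 194, 131 and 315 in the knockouts. mt-Co3 had 245, 274, 223 and 207 in the controls and 204, 183, 102 and 234 in the knockouts. For both, knockouts 1 to 3 lay below every control, while knockout 4 was above every control for mt-Co2 and among them for mt-Co3. The log2 fold changes of mt-Co2 and mt-Co3 were -0.36 (SE 0.24, adjusted p = 0.883) and -0.39 (SE 0.24, adjusted p = 0.853). Without knockout 3 they were -0.18 and -0.20, and without knockout 4 that of mt-Co2 was -0.59.

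The 2 complex V genes overlap, since mt-Atp8 ends at position 7969 of the mitochondrial chromosome and mt-Atp6 starts at 7927, so reads in the overlap belong to both. mt-Atp6 had 249.8, 324, 362 and 390.5 normalized CPM per kb in the controls and 274, 231, 232 and 577 in the knockouts. mt-Atp8 had 118, 203, 202 and 207 in the controls and 143, 108, 138 and 305 in the knockouts. Knockout 4 was highest for both, and their log2 fold changes were -0.01 (SE 0.30) and -0.07 (SE 0.31), and -0.43 and -0.49 without knockout 4.

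**Figure D3:**
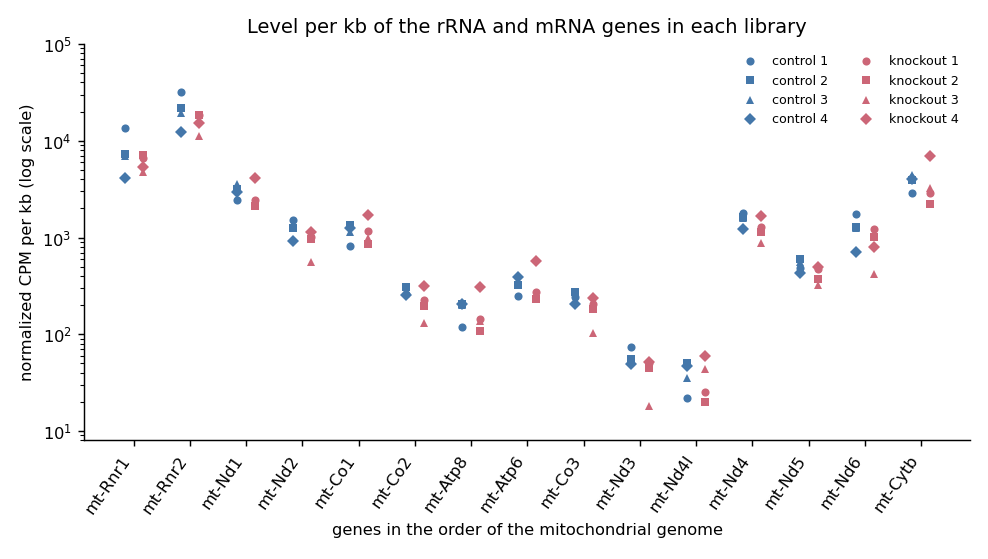
Each point is 1 library, with controls in blue and knockouts in red, and the log axis gives normalized CPM per kb for the 2 rRNA and 13 mRNA genes in genome order. The genotypes overlap for every gene, and levels drop between mt-Co1 and mt-Nd4, to a lowest mean of 37.9 for mt-Nd4l.

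Among the rRNA and mRNA genes, those between mt-Co1 and mt-Nd4 had the lowest mean levels per kb. Ordered by the mean over the 8 libraries, mt-Rnr2 was above mt-Rnr1 in all 8 libraries, and mt-Rnr1 was above mt-Cytb in 7. mt-Cytb was above mt-Nd1, and mt-Nd1 above mt-Nd4, in all 8. The next 4 were not ordered alike in all libraries: mt-Nd4 was above mt-Co1 in 5 of 8, mt-Co1 above mt-Nd2 in 5 and mt-Nd2 above mt-Nd6 in 4. Lower down, mt-Nd6 was above mt-Nd5 in all 8 libraries, mt-Nd5 above mt-Atp6 in 7 and mt-Atp6 above mt-Co2 in 7. mt-Co2 was above mt-Co3 in all 8, mt-Co3 above mt-Atp8 in 5, mt-Atp8 above mt-Nd3 in all 8, and mt-Nd3 above mt-Nd4l in 6.

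This order was set beside the sequence shared with nuclear transcripts, measured as the percent of a gene's 50-base stretches that occur exactly in an annotated nuclear transcript. All 50-base stretches of mt-Co2 were shared, as were 99.9% of mt-Co3, 99.5% of mt-Atp6, 98.8% of mt-Nd4l and 98.0% of mt-Nd3. mt-Nd4 shared 62.2% and mt-Co1 51.1%, and the chromosome 1 copy holds only part of each of these genes. mt-Nd2 shared 8.19% and mt-Nd5 7.61%, and mt-Nd1, mt-Nd6, mt-Cytb and mt-Atp8 shared 0%. The value of mt-Atp8 holds for annotated transcripts only, since the gene lies within the copied stretch but no pseudogene is annotated there.

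The 7 mRNA genes with 50% or more shared stretches had mean levels of 37.9 to 1403 normalized CPM per kb with a median of 246. The other 6, with under 10% shared in annotated transcripts, had 178 to 3817 with a median of 1075. Leaving out mt-Atp8, which lies within the copied stretch, the lowest of them was mt-Nd5 at 466. The 5 genes with almost fully shared sequence were at most at 330.0, and of the other 8 only mt-Atp8, at 178, was as low. Per 1000 stretches that were not shared, mt-Nd4 had 3852 normalized CPM and mt-Co1 2452, against 3988 for mt-Cytb and 3036 for mt-Nd1. The other genes were lower on that scale, both mt-Nd2 (1249) and mt-Nd5 (518), with few shared stretches, and mt-Nd6 (1167), with none. mt-Atp8 had 234, but this counts all its stretches as unshared because sequence outside annotated transcripts was not searched. Only uniquely mapped reads were counted, and a read that lies in an identical stretch has more than 1 place in the genome. How much of the low level of each gene this accounts for was not tested, because no genome sequence or reads were used here.

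**Figure D4:**
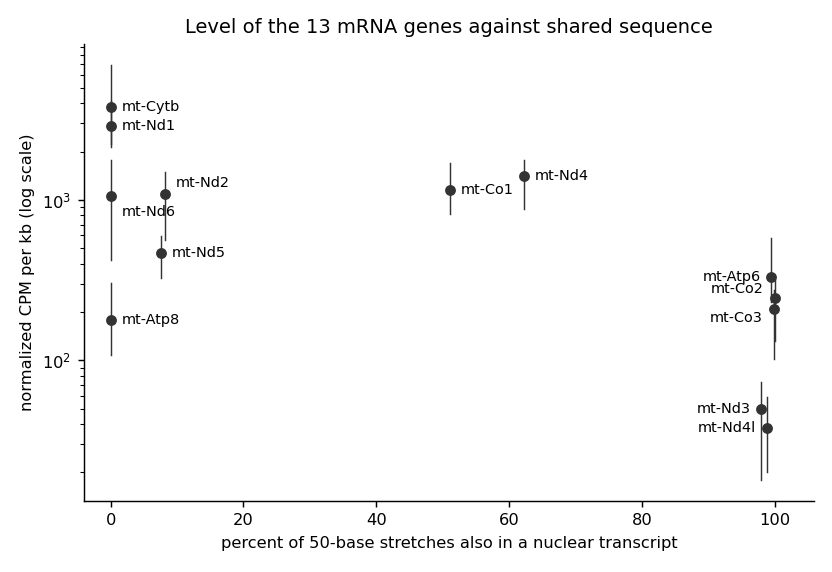
Points give the mean level of the 13 mRNA genes over 8 libraries in normalized CPM per kb (log axis) against the percent of 50-base stretches also found in a nuclear transcript, and vertical lines run from the lowest to the highest library. The 5 genes at the right edge lie at 37.9 to 330.0. The only other gene in that range is mt-Atp8 with 178, at 0% in annotated transcripts though within the copied stretch.

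The nuclear copies themselves received counts. The 7 pseudogenes of chromosome 1 had 9243, 8649, 6642 and 6994 counts in controls 1 to 4 and 8382, 7879, 2667 and 11200 in knockouts 1 to 4. Knockout 3 was lowest and knockout 4 highest, as for the mitochondrial mRNA genes. Gm28437, the copy of mt-Co3, had 2456, 1968, 1448 and 1413 counts in the controls and 1898, 1910, 442 and 1997 in the knockouts. Gm10925, the copy of mt-Atp6, had 1524, 1897, 1674 and 1964 counts in the controls and 1749, 1617, 795 and 3573 in the knockouts. In counts, control 1 was highest for both mt-Co3 and Gm28437, and knockout 4 was highest for both mt-Atp6 and Gm10925.

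Gm29216 (mt-Co1) had 613 to 2636 counts, Gm28661 (mt-Co2) 382 to 1738, Gm28438 (mt-Nd3) 154 to 667, Gm28439 (mt-Nd4) 191 to 565 and Gm10222 (mt-Nd4l) 68 to 255. On chromosome 2, 3 further unprocessed pseudogenes had a mean of over 100 counts, namely Gm13341 (mt-Co2) with 181 to 1290, Gm13340 (mt-Co1) with 144 to 523 and Gm13339 (mt-Nd2) with 47 to 277. Copies took on average 68.1% of the normalized CPM of mt-Nd3 and its copy together, 44.7% for mt-Co2, 43.7% for mt-Nd4l, 41.8% for mt-Co3 and 37.2% for mt-Atp6. The share was 8.60% for mt-Co1 and 1.28% for mt-Nd4. With the copies' counts added, mt-Co3 went from 209 to 360.5 normalized CPM per kb and mt-Co2 from 246 to 447, both still below mt-Nd5 at 470.1, whereas mt-Atp6 went from 330.0 to 525 and lay above it. All 14 nuclear genes with a shared stretch came to 0.941% to 1.71% of the mitochondrial counts of a library, and with them added the genotype difference in the mitochondrial share stayed at -0.34 percentage points (exact permutation p = 0.886). Because the chromosome 1 copies differ from the members at only 7 of 4149 aligned bases, the division of counts between a member and its copy there is uncertain. Copies without any differing base also received counts, and how these reads were placed was not tested.

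The tRNA genes took little of the mitochondrial counts, with 0.131%, 0.169%, 0.130% and 0.166% in controls 1 to 4 and 0.182%, 0.109%, 0.133% and 0.122% in knockouts 1 to 4. The groups overlapped, with means of 0.149% ± 0.021 and 0.137% ± 0.032 (SD, n = 4 each; difference -0.013 percentage points, exact permutation p = 0.571). The difference was -0.0035 percentage points without knockout 2, -0.0060 without control 2, -0.0072 without control 4, -0.0080 without knockout 4 and -0.028 without knockout 1, and it was -0.0052 and -0.020 within the library sets. Mature tRNAs carry no poly(A) tail, and the libraries were primed with oligo-dT, whose part in the low tRNA share was not tested.

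Most of these few counts fell on tRNA genes annotated on the minus strand. The 8 minus-strand tRNA genes had 1420, 1084, 659 and 695 counts in controls 1 to 4, and the 14 plus-strand ones 184, 125, 119 and 83. In knockouts 1 to 4 the sums were 1300, 778, 312 and 882 on the minus strand and 155, 97, 55 and 109 on the plus strand. The minus-strand sum was the larger in all 8 libraries. The 4 tRNA genes that averaged 50 counts or more, mt-Tq, mt-Tp, mt-Te and mt-Ts1, were all on the minus strand. The amplified cDNA was cut and tagged as a double strand, which keeps no record of the transcribed strand. RNA of the minus-strand tRNA genes and RNA antisense to them, which belongs to the long precursor of the other strand, can therefore not be told apart, and the same holds for mt-Nd6.

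The 3 most counted tRNA genes and mt-Tk are shown as the RNA would read, with T for U, to place these counts; the genes lie at chrM:3772-3842 (mt-Tq), chrM:14071-14139 (mt-Te) and chrM:15356-15422 (mt-Tp), minus strand, and at chrM:7700-7764 (mt-Tk), plus strand, in GRCm38.
mt-Tq, tRNA for glutamine: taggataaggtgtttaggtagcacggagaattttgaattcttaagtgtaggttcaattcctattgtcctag
mt-Te, tRNA for glutamate: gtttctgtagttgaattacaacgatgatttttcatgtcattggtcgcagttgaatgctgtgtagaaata
mt-Tp, tRNA for proline: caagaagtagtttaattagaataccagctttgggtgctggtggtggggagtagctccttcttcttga
mt-Tk, tRNA for lysine: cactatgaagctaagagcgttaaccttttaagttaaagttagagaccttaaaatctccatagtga
mt-Tq had 532, 477, 244 and 261 counts in controls 1 to 4 and 585, 303, 132 and 200 in knockouts 1 to 4. mt-Tp had 263, 251, 194 and 238 counts in the controls and 306, 165, 103 and 371 in the knockouts. mt-Te had 341, 154, 105 and 97 counts in the controls and 208, 160, 14 and 104 in the knockouts. The genotypes overlapped for all 3, and in counts knockout 3 was lowest for each. In normalized CPM mt-Tq was lowest in knockout 4 (12.2) and mt-Tp in knockout 2 (9.50). The log2 fold changes were -0.51 for mt-Tq (SE 0.32), -0.22 for mt-Tp (SE 0.26) and -0.76 for mt-Te (SE 0.49). That of mt-Tq was -0.92 without knockout 1 and -0.33 without knockout 4. For mt-Tp it was -0.038 without knockout 2, -0.12 without knockout 3 and -0.45 without knockout 4. For mt-Te it was -0.38 without control 1, -0.46 without knockout 3, -1.11 without knockout 1 and -0.28 with limma-voom. mt-Tk, which lies within the stretch copied to chromosome 1, had 0 counts in all 8 libraries, and a count of 0 allows up to 3 counts in a library.

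Of the other minus-strand tRNA genes, mt-Ts1 (serine) had 167, 91, 53 and 54 counts in the controls and 99, 87, 31 and 112 in the knockouts. mt-Tc (cysteine) had 65, 64, 34 and 13 counts in the controls and 51, 25, 13 and 37 in the knockouts, and mt-Ta (alanine) had 48, 40, 24 and 24 and then 43, 32, 18 and 56. The remaining minus-strand genes, mt-Tn (asparagine) and mt-Ty (tyrosine), had at most 7 and 2 counts. Their ranges overlapped between the genotypes.

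On the plus strand only 4 tRNA genes had a mean of at least 10 counts. mt-Tm (methionine) had 35, 22, 46 and 21 counts in the controls and 34, 12, 10 and 26 in the knockouts. mt-Tv (valine) had 37, 35, 14 and 8 and then 34, 18, 15 and 21, and mt-Tl2 (leucine) had 36, 19, 26 and 12 and then 20, 23, 18 and 23. mt-Tt (threonine) had 26, 21, 9 and 16 counts in the controls and 25, 10, 3 and 8 in the knockouts. The log2 fold change was -0.86 for mt-Tt (SE 0.55, adjusted p = 0.872) and -0.82 for mt-Tm (SE 0.48, adjusted p = 0.847), and both rest on fewer than 50 counts in each library. Without knockout 1 that of mt-Tt was -1.47, and without control 3 that of mt-Tm was -0.45. The other plus-strand genes, mt-Tf, mt-Tl1, mt-Ti, mt-Tw, mt-Td, mt-Tg, mt-Tr, mt-Th and mt-Ts2, had at most 13 counts in any library.

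**Figure D5:**
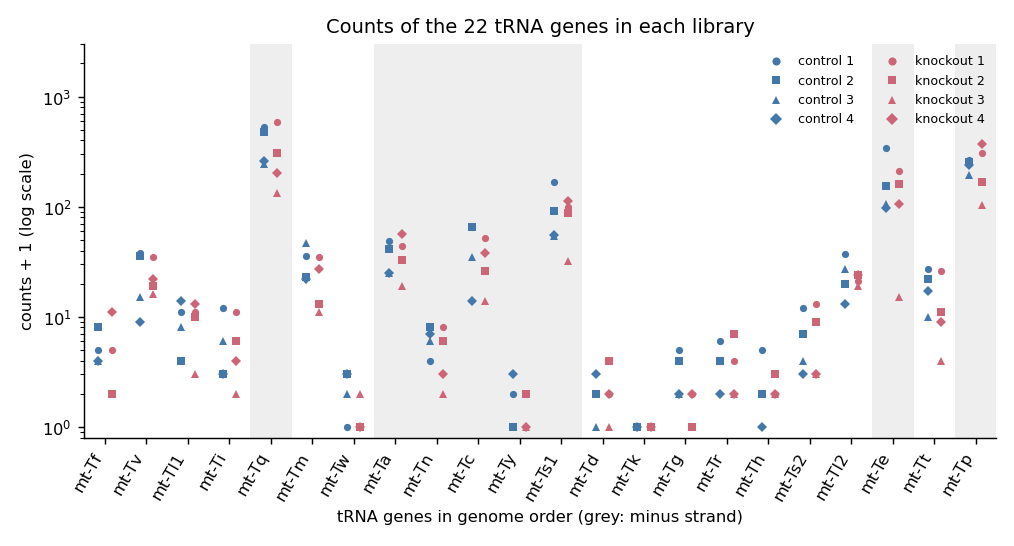
Each point is 1 library, with controls in blue and knockouts in red, and the log axis gives counts + 1 for the 22 tRNA genes in genome order, with minus-strand genes on grey. The 4 genes that averaged 50 counts or more are all on grey, and mt-Tk lies at 0 counts in every library.

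The light-strand genes as a group, with mt-Nd6 as the main member, took 1.31%, 1.32%, 1.31% and 1.14% of mitochondrial counts in controls 1 to 4 and 1.50%, 1.24%, 0.788% and 0.945% in knockouts 1 to 4. Knockouts 3 and 4 lay below every control and knockout 1 above, with means of 1.27% ± 0.086 and 1.12% ± 0.316 (SD, n = 4 each; difference -0.15 percentage points, exact permutation p = 0.343). Without knockout 3 the difference was -0.042 percentage points (exact permutation p = 0.686), without knockout 4 it was -0.094 and without knockout 1 it was -0.28. Within the first library set it was 0.056 percentage points and within the second -0.36. mt-Cytb counts were 3.60, 6.75, 7.91 and 12.4 times those of its light-strand neighbour mt-Nd6 in controls 1 to 4. In knockouts 1 to 4 this ratio was 5.10, 4.82, 17.1 and 19.3, and in both genotypes it was higher in the second library set.

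The nuclear genes that maintain, transcribe, process and translate the mitochondrial genome were described alongside the members. Of 148 listed genes 146 passed the filter on low counts, and 0 were called by edgeR, against 0.186% of all tested genes. At an unadjusted p under 0.05 there were 4 of the 146, against 924 of all 13439 tested genes, and DESeq2's Wald test and limma-voom also called 0. The log2 fold change was above 0 for 66 and below 0 for 80, with a median of -0.03 against 0.01 over all tested genes. Tfam stands in both the transcription and the replication list. The 79 mitochondrial ribosomal proteins had a median of -0.02 over the 78 tested, the 28 RNA processing and stability genes -0.05 over 27, the 12 translation factors -0.16, the 12 genes of mtDNA replication and maintenance -0.09, the 10 transcription genes 0.05 and the 8 biogenesis regulators -0.11.

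Polrmt, the mitochondrial RNA polymerase, had a log2 fold change of 0.32 (SE 0.46), and Tfam, which packages mitochondrial DNA and starts transcription, one of -0.27 (SE 0.19). The initiation factor Tfb2m was at 0.05 (SE 0.32) and the elongation factor Tefm at -0.24 (SE 0.34). Lrpprc, which stabilises the mRNAs, was at -0.16 (SE 0.25), and its partner Slirp did not pass the filter. The DNA polymerase Polg was at 0.02 (SE 0.30), the helicase Twnk at -0.31 (SE 0.60), the RNA-degrading Pnpt1 at 0.28 (SE 0.29) and the poly(A) polymerase Mtpap at -0.10 (SE 0.57), and adjusted p was between 0.889 and 0.997 for all 9 in edgeR's test. The 4 genes with an unadjusted p under 0.05, chosen after their values were seen, were the biogenesis coactivator Ppargc1a at -1.11 (SE 0.48, adjusted p = 0.675), the ribosomal proteins Mrps25 at 0.60 (SE 0.21, adjusted p = 0.523) and Mrps27 at 0.75 (SE 0.33, adjusted p = 0.686), and Taco1, the translational activator of mt-Co1, at 1.41 (SE 0.62, adjusted p = 0.686).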

How the data were processed

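RNA of FACS-sorted Paneth cells from small intestine was primed with oligo-dT, template switched, amplified by PCR and tagmented, without molecular identifiers. By the study's methods, only a small number of cells was sorted into a tube. The authors used GSNAP for alignment to mm10, and featureCounts 1.6.3 with Ensembl 92 for counting reads that mapped uniquely. The deposited values are raw counts per gene and library, without normalization. The strand setting is not given in the sources used here. The 92 spike-in rows (at most 7 counts) were left out, and 53620 of 53801 genes had a symbol. Replicate numbers are names and pair no samples. The study describes the samples of a genotype as separate mice, and p-values measure the spread between these samples. 1 animal number stands in the labels of both control 4 and knockout 4.

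Members were all genes with the mitochondrial chromosome as their location. This set of genes and the gene lists were chosen for description with earlier results of these data known. Values in every library are given for mRNA and rRNA genes, for tRNA genes with a mean of at least 10 counts and for the larger nuclear copies (mean of at least 100 counts), of which some are given as ranges. Genes were tested in R 4.3.3 with edgeR 4.0.16 (TMM, filterByExpr at min.count 10 and min.total.count 15, robust quasi-likelihood fit, Benjamini-Hochberg adjustment). SE was approximated as the size of the log2 fold change divided by the square root of F. Alternatives used DESeq2 1.42.0, limma 3.58.1 (limma-voom, always with quality weights per library) and other scalings and filters. Shares were compared by two-sided exact permutation tests (scipy 1.17.1). Shared 50-base stretches were searched on both strands of the GENCODE M21 transcripts of GRCm38. The functions were tested on simulated data.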

Additional observations from a re-analysis of the deposited data

Results flagged for a closer look

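Among 64 groups of 4 libraries (2 genotypes for each of 7 shares and ratios and 25 tested members), 5 held a library whose gap to its nearest neighbour, divided by the range of the group, was above Dixon's 95% critical value. Chance flags about 1 in 20 groups, or 3 of 64. The mitochondrial share of knockout 3 (2.04%, others 5.98% to 6.16%) had a gap of 0.957 of the range. The light-strand share of mitochondrial counts in control 4 (1.14%, others 1.31% to 1.32%) had a gap of 0.955. For mt-Nd1, knockout 4 had 3947 normalized CPM against 2049 to 2354 in the other knockouts, a gap of 0.840. For mt-Atp6, knockout 4 had 393 against 158 to 186, a gap of 0.878. For mt-Atp8, control 1 had 24.1 against 41.1 to 42.2 in the other controls, a gap of 0.941.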

How the results depend on the processing

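No member and no gene of the nuclear machinery was called in any of 20 alternatives, with each library left out in turn among them, and the lowest adjusted p of a member was 0.360. The count at an unadjusted p under 0.05 was 7 of 36 members (3086 of all 37039 genes) without a filter on low counts, 2 of 25 (1064 of 13439) with the library set as a block, at most 2 with 1 library left out, and 0 in the other alternatives. The number of all genes called moved from 25 to 290 without a filter, 138 with DESeq2's Wald test, 95 with limma-voom, 38 with an adjusted p up to 0.1 and no fold limit and 152 without knockout 3. It fell to 13 with at least 10 counts in every library, 11 without control 1 or without knockout 2, 12 without control 2, 10 without control 3 and 15 without control 4.

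The difference in the mitochondrial share (-0.34 percentage points) ran from -1.05 to 0.79 with 1 library left out. It was 0.13 for mRNA genes only, 0.094 for mRNA genes with few shared stretches and 0.72 without knockouts 3 and 4, these last 2 chosen after seeing the data. It was -1.22 over TMM-adjusted library sizes (exact permutation p = 0.286) and -3.97 without the 50 most abundant nuclear genes in the total (exact permutation p = 0.314). The difference in the rRNA share ran from -5.17 to 1.52 with 1 library left out. The other 5 shares and ratios kept their direction with each library left out.

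Directions of single members turned in 35 of 473 fits, and 14 of 25 members kept theirs in all. With library sizes set to the mitochondrial total, log2 fold changes turned to 0.093 (mt-Nd1), 0.13 (mt-Atp8), 0.17 (mt-Atp6), 0.19 (mt-Nd4l), 0.23 (mt-Tv), 0.28 (mt-Ta), 0.043 (mt-Ts1), 0.19 (mt-Tl2) and 0.023 (mt-Tp). With limma-voom they turned to -0.054 (mt-Co1), -0.31 (mt-Cytb) and 0.032 (mt-Tv), and for mt-Cytb to -0.030 with upper-quartile normalization and -0.073 with the library set as a block. With 1 library left out, mt-Co1 ran from -0.19 to 0.17, mt-Atp8 from -0.49 to 0.10, mt-Atp6 from -0.43 to 0.12, mt-Nd4l from -0.38 to 0.16, mt-Cytb from -0.46 to 0.20, mt-Tv from -0.49 to 0.10 and mt-Ta from -0.24 to 0.076. The cause of these turns was not tested. No paired analysis was possible because the genotypes share fewer than 2 numbers in the labels. The study's methods call the mice littermates, but the labels used here name no litters, so shared litters were not modelled.

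The 12 members that did not pass the filter on low counts were all tRNA genes. Reads shared with nuclear copies could not be recovered from the counts.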
